A study of Mus musculus with 16 samples.

Results

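A set of 35 mouse genes of glucose use and of the response to low oxygen was followed across sorted lung alveolar type 2 (AT2) cells. The genes were taken by symbol from a count table of 27179 genes. They comprised 3 genes of glucose entry and phosphorylation, 8 of upper glycolysis, 6 of lower glycolysis, 5 of pyruvate and lactate handling, 4 of the pentose phosphate pathway, the 2 alpha subunits of hypoxia-inducible factor (HIF) and 7 HIF target genes. Of these, 33 passed the filter on low counts and were tested, and the HIF targets Car12 and Egln3 did not pass it. The series asked how CD44+ and CD44- AT2 cells differ in fibrotic lungs of mice with a mutant Sftpc, the gene of surfactant protein C (SP-C), and in control lungs. AT2 cells were sorted by flow cytometry from 4 control and 4 mutant lungs after depletion of immune (CD45) and endothelial (CD31) cells. The gate took Epcam+ cells that were CD104- and high in CD200, and each lung gave a CD44- and a CD44+ library of total RNA, 16 libraries in all. The labels give the genotypes as SP-C WT and SP-C Mutant and carry the same treatment text, OG TMX, for all 16 libraries. They give no strain, age, allele, Cre driver or time after treatment.

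The columns of the count table are named R26 or OG in place of the genotypes. The CD44- and CD44+ groups of R26 and of OG hold 4 libraries each, from R26 animals 1, 2, 7 and 8 and from OG animals 3, 5, 6 and 7. R26 was read as SP-C WT and OG as SP-C Mutant, which the labels do not state, so every difference between OG and R26 is one between these column names. Values per library are listed below in the order of these animal numbers, in CPM, the count of a gene over the scaled size of its library. Where 4 values or ranges are given for a gene, they run in a fixed order, CD44- before CD44+ in R26 and then the same in OG.

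Glycolysis splits glucose to pyruvate in the cytosol and yields ATP and NADH, and lactate dehydrogenase returns the NADH to its oxidized form by making lactate. The pentose phosphate pathway branches off at glucose 6-phosphate and yields NADPH and ribose 5-phosphate, and AT2 cells, which make the lipids of surfactant, use NADPH for lipid synthesis. When oxygen is low the HIF alpha subunits, HIF-1 alpha (Hif1a) and HIF-2 alpha (Epas1), escape degradation, pair with ARNT and bind short DNA motifs near genes that include many glycolytic enzymes.

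The core motif bound by HIF reads ACGTG or GCGTG. Both words and their reverse complements were searched in the 250 bases before each start listed by RefSeq (build GRCm38.p6, the coordinates of mm10). Of the 35 genes, 33 had a listed start and 25 of these, or 75.8%, held the motif before the first start listed. Over all 27025 genes with a listed start, 38.6% did. The list holds HIF targets by choice, so a share above that of all genes is no finding of these data. Base composition was not matched between these sets, and a match is a run of letters and no evidence of binding. The share of all genes called in the same direction in all 4 comparisons described below was not computed. Of the 8 members that were so called, 4 have a first listed start whose preceding 250 bases lie outside the gene and every annotated exon. These are shown because their genes were called the same way throughout, printed 5′ to 3′ on the strand of the gene with the motif, or its reverse complement, in capitals and overlapping matches counted once. Eno1 (chr4:150236458-150236707, plus strand, 1 match) and Adm (chr7:110627407-110627656, plus strand, 2 matches) were higher in every comparison. Eno1 has further listed starts downstream, with 2 matches each before them. They are not shown, as 245 or more of the 250 bases lie in annotated exons. Slc16a1 (chr3:104638414-104638663, plus strand, 3 matches) and Ldhb (chr6:142507958-142508207, minus strand, 1 match) were lower in every comparison. Not all of these calls were firm. The Ldhb call within OG was lost on leaving out 12 of 16 single libraries. The Adm call for OG CD44+ against R26 CD44+ was lost on leaving out 2 of 16.
Eno1: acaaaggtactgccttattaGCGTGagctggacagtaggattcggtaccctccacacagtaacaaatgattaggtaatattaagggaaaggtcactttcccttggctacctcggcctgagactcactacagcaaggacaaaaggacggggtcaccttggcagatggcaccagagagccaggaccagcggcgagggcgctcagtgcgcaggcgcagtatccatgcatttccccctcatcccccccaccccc
Adm: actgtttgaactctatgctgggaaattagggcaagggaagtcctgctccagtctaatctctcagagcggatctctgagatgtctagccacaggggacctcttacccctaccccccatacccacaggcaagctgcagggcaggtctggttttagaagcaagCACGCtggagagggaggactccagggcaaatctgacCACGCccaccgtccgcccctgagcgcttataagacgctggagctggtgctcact
Slc16a1: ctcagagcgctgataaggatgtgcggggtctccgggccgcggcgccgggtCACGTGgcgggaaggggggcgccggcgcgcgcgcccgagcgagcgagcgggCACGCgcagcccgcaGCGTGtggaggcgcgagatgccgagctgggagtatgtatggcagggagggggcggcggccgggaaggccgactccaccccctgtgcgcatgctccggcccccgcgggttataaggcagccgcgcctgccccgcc
Ldhb: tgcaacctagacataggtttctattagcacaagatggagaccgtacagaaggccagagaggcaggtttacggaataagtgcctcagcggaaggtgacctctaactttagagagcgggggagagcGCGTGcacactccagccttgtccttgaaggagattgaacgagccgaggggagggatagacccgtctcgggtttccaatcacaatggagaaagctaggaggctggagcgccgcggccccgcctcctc
The motif stood before members that were higher and before members that were lower.

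The libraries held 9022471 to 21363816 counts each. Sftpc itself lay at 71100 to 86310 CPM in R26 CD44-, 47310 to 72720 in R26 CD44+, 11100 to 12020 in OG CD44- and 5688 to 7173 in OG CD44+, and the summed level of 10 AT2 markers followed the same order (162300 to 191900, 108300 to 155900, 46890 to 50500 and 21610 to 25870 CPM). The sum of 8 markers of transitional alveolar cells ran the other way, at 483 to 533, 654 to 820, 2815 to 2892 and 4028 to 4180 CPM in the same order of groups, and that of 8 AT1 markers was 1505 to 1707, 2056 to 2396, 3471 to 3770 and 3272 to 3668 CPM. Of the AT1 markers, 5 were higher and 3 lower in OG CD44+ than in R26 CD44+. Cd44 was 324 to 334, 387 to 560.0, 538 to 593 and 897 to 947 CPM. Markers of several other cell types were higher in CD44+ libraries. The 8 fibroblast and mural markers summed to 110.3 to 136, 739 to 1510.0, 726 to 789 and 1612 to 2844 CPM, the 8 lymphocyte and plasma cell markers to 4.59 to 13.4, 709.9 to 1943, 39.9 to 74.7 and 748 to 1936 CPM, the 6 club and secretory markers to 557 to 1184, 1800.0 to 3288, 638 to 761 and 1845 to 2546 CPM, and the 8 ciliated cell markers to 471 to 569, 740.1 to 1066, 934 to 977 and 1258 to 1623 CPM. Between OG CD44+ and R26 CD44+, 3 fibroblast and mural markers were higher and 3 lower in OG. There Col1a1 was at means of 686 against 226 CPM and Dcn at 36.1 against 80.6. Most of the ciliated sum came from Sec14l3, at group means of 394 to 1161 CPM. Most of the lymphocyte and plasma cell sum came from Igkc and Jchain. The 8 endothelial markers summed to 105 to 195 CPM over all libraries, most of it from Esam, at group means of 90.7 to 151 CPM. Of the 7 endothelial markers tested, 6 were higher and Esam lower in R26 CD44+ than in R26 CD44-, with Pecam1, the gene of CD31, at means of 18.03 against 3.88 CPM and Cdh5 at 22.4 against 3.23. Within OG 0 were higher and 4 lower in CD44+ cells, against R26 4 were higher and 0 lower in OG CD44- and 0 higher and 5 lower in OG CD44+, and the CD44 difference of all 7 was more negative in OG than in R26. The 8 macrophage and monocyte markers summed to 76.7 to 114 CPM, most of it from Cd14, at group means of 58.2 to 75.4 CPM. Of the 7 tested, 6 were higher and 0 lower in OG CD44- than in R26 CD44-, 4 higher and 2 lower in OG CD44+ than in R26 CD44+, 3 higher and 0 lower with CD44 in R26, and 1 higher and 2 lower with CD44 in OG. Marco and Siglecf, which define alveolar macrophages, had 0 counts in R26 CD44-. Basal, neutrophil and erythroid markers summed to at most 9.86 CPM, with 1 exception of 57.4 CPM for the basal markers in the R26 CD44+ library of animal 1. The part of these cells in the results below was not tested, and in sorted bulk cells a change in the mixture of cell types and a change of RNA per cell cannot be told apart. The R26 CD44+ library of animal 2 stood apart from the other 3 of its group in the AT2 sum, at 155900 against 108300 to 111000 CPM. Its lymphocyte and plasma cell sum was 1943 against 709.9 to 1050 CPM. The R26 CD44+ library of animal 1, with the high basal sum, held 1510 CPM of fibroblast and mural markers, against 739 to 993 in the others of its group. The OG CD44+ library of animal 3 stood apart from the other 3 of its group in several sums. It held 2844 against 1612 to 1699 CPM of fibroblast and mural markers and 1936 against 748 to 777 of lymphocyte and plasma cell markers. Its ciliated sum was 1258 against 1595 to 1623 CPM and its AT2 sum 21610 against 24920 to 25870.

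In CD44- cells, nearly all members differed between OG and R26. The glucose transporter gene Slc2a1, all 6 genes of lower glycolysis and all 4 of the pentose phosphate pathway were higher in OG, while Epas1, the lactate transporter gene Slc16a1 and the pyruvate dehydrogenase kinase gene Pdk1 were lower. Calls here and below are at an adjusted p under 0.05 in the quasi-likelihood F test of edgeR, with p-values adjusted over 15516 genes by the method of Benjamini and Hochberg. By that rule 20 members were higher and 12 lower in OG CD44- than in R26 CD44-, where 69.0% of all genes were called, 39.4% higher and 29.6% lower. The calls of Eno2, Ldha, Tkt and Tpi1 were lost under some alternatives given below. The median log2 fold change was 0.57 over the members and 0.12 over all genes. The values of both groups did not overlap for 29 members, as for 67.6% of all genes.

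Against R26 CD44+, 19 members were higher and 10 lower in OG CD44+, where 69.1% of all genes were called, 34.5% higher and 34.6% lower. The median log2 fold changes were 0.62 over the members and -0.01 over all genes. The values did not overlap for 26 members, as for 57.7% of all genes. In both sorts 18 members were higher and 8 lower in OG, and Eno2 and Ldha were called in opposite directions. The share of all genes called the same way in both sorts was not computed. With 69.0% and 69.1% of all genes called in these comparisons, the counts are not read as particular to the members. Whether the difference between OG and R26 was the same in both sorts is the interaction tested below, and it was called for 14 of the 33 members.

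Between CD44+ and CD44- cells the members were divided. Within OG, 13 were higher and 8 lower in CD44+ cells, where 50.4% of all genes were called, 22.3% higher and 28.0% lower. The libraries of both sorts did not overlap for 20 members, as for 51.0% of all genes. Within R26, 9 were higher and 13 lower, where 37.1% of all genes were called, 21.6% higher and 15.4% lower. There 16 members did not overlap, as did 28.8% of all genes. The member medians were -0.04 within OG and -0.07 within R26, and those of all genes -0.06 and -0.02. The member median within OG turned to 0.0163 with the OG CD44- library of animal 7 as the reference of the TMM scaling, 0.02195 with only the 8 libraries compared and 0.01964 without OG CD44+ animal 3. That within R26 was -0.17 with that reference, -0.16 without R26 CD44- animal 8 and -0.19 without R26 CD44+ animal 2. The 5 members higher in CD44+ cells of both were Slc16a3, Pfkfb3, Adm, Eno1 and Pfkp, and the 6 lower in both were Epas1, Ldhb, Pdk1, Pgd, Slc16a1 and Tkt. The share of all genes called the same way in both was not computed. With the animal as a block, 12 members were lower in CD44+ cells of OG, Hk2 (-0.15, adjusted p = 0.00519), Eno2 (-0.56, adjusted p = 0.0303), Hif1a (-0.10, adjusted p = 0.0453) and Vegfa (-0.10, adjusted p = 0.0463) being added, and Tkt was called higher in OG CD44+ than in R26 CD44+ (0.17, adjusted p = 0.044). Without R26 CD44+ animal 2, 5 further members were called lower in CD44+ cells of R26, namely Aldoa (-0.24, adjusted p = 0.00113), Pkm (-0.24, adjusted p = 0.000333), G6pdx (-0.23, adjusted p = 0.00373), Gpi1 (-0.19, adjusted p = 0.0221) and Hk1 (-0.16, adjusted p = 0.0125). Of these Hk1, Pkm and G6pdx also passed with the OG CD44- library of animal 7 as reference, Hk1 without R26 CD44+ animal 1 or R26 CD44- animal 1 or 8, and Pkm without R26 CD44- animal 7 or 8. The CD44 comparisons share libraries with those between OG and R26. The sums of fibroblast, lymphocyte and secretory markers given above were higher in CD44+ cells too, as were 6 of 7 endothelial markers in R26, and their part in these differences was not tested.

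Small differences depended on the scaling between libraries. With the OG CD44- library of animal 7 as the TMM reference, the all-gene median moved from 0.12 to 0.02 for OG CD44- against R26 CD44- and from -0.02 to -0.12 for R26 CD44+ against R26 CD44-. The latter comparison then called 2979 genes higher and 4824 lower, against 3357 and 2393 here, and DESeq2's size factors gave 3174 and 3435. For OG CD44- against R26 CD44- the all-gene median lay at 0.003 to 0.008 on leaving out any R26 library, CD44+ libraries included. On leaving out any OG library it lay at 0.11 to 0.12. For R26 CD44+ against R26 CD44- these values were -0.08 to -0.09 and -0.02, and for OG CD44+ against OG CD44- -0.003 to -0.005 and -0.05 to -0.06. In these comparisons a member's change without an R26 library came with a shift of all genes. Whether that shift accounts for it was not tested. No called member changed its direction under any scaling or library left out.

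**Figure D1:**
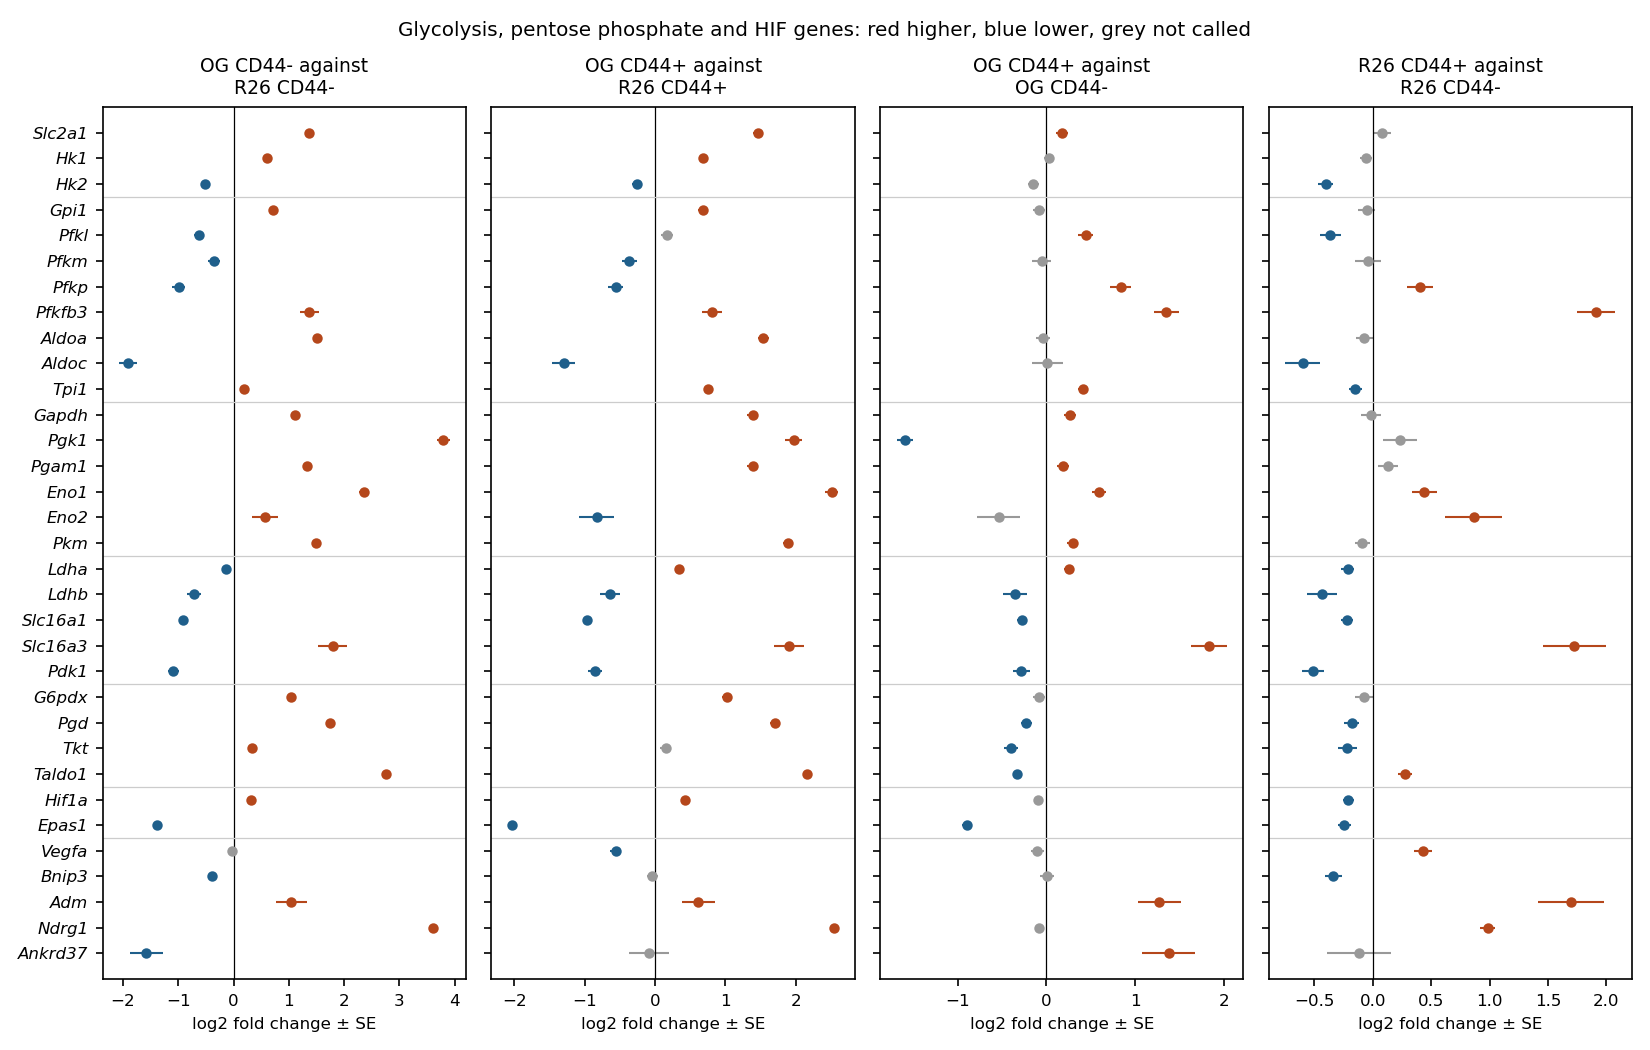
Log2 fold change ± SE (x axes, each with its own range) of the 33 tested members in 4 comparisons, with red points called higher, blue lower and grey not called, and lines between role groups from glucose entry at the top to HIF targets at the bottom. In the first panel 20 points are red and 12 blue, and the lower glycolysis block and the pentose phosphate block hold red points only.

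Slc2a1 encodes GLUT1, which carries glucose across the plasma membrane. It measured 22.6, 24.7, 23.5 and 22.5 CPM in R26 CD44- and 27.9, 22.1, 25.3 and 23.1 CPM in R26 CD44+. In OG it measured 59.8, 61.2, 62.1 and 56.9 CPM in CD44- and 65.4, 66.3, 76.2 and 64.0 in CD44+. Every OG library lay at more than 50 CPM and every R26 library below 30, and within OG each CD44+ library lay above each CD44- library. The log2 fold change of OG against R26 was 1.36 ± 0.07 (SE, here and below; adjusted p = 1.84e-14) in CD44- and 1.46 ± 0.07 (adjusted p = 8.83e-15) in CD44+ cells. The rise in CD44+ cells within OG was small, at 0.18 ± 0.07 (adjusted p = 0.0262). It did not pass without OG CD44+ animal 6 (0.12, adjusted p = 0.15), OG CD44- animal 7 (adjusted p = 0.0929) or OG CD44- animal 3 (adjusted p = 0.057).

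Hexokinase traps glucose in the cell as glucose 6-phosphate, and its 2 main genes moved apart. Hk2, the insulin- and hypoxia-responsive form, measured 182, 173, 172 and 191 CPM in R26 CD44- and 132, 122, 144 and 144 in R26 CD44+. The OG libraries held 118, 131, 123 and 131 CPM in CD44- and 100.03, 118, 123 and 112 in CD44+ cells. R26 CD44- held the highest values and overlapped no other group, whereas the OG and R26 values overlapped in CD44+ cells. Hk2 fell in OG by 0.51 ± 0.06 (adjusted p = 9.2e-08) in CD44- and by 0.26 ± 0.06 (adjusted p = 0.000904) in CD44+ cells, and fell by 0.40 ± 0.06 (adjusted p = 1.62e-05) from CD44- to CD44+ in R26, all as log2. Hk1, the constitutive form, ranged over 91.1 to 97.5, 84.3 to 98.9, 139 to 147 and 142 to 152 CPM in the 4 groups. It rose in OG by 0.60 ± 0.05 (adjusted p = 2.08e-10) and 0.69 ± 0.05 (adjusted p = 2.54e-11) in CD44- and CD44+ cells, and did not pass between the sorts. Per kilobase of exon, Hk2 exceeded Hk1 in every group on average, by 30.0 ± 1.54 to 11.1 ± 0.354 CPM per kb (mean ± SD, n = 4) in R26 CD44- but only by 19.0 ± 1.67 to 17.1 ± 0.564 in OG CD44+. The exon length is the union of all annotated exons, 8532 bases for Hk1 and 5969 for Hk2. Their coding lengths are 2835 and 2751. In CPM Hk1 lay above Hk2 in OG, at means of 143 to 126 in CD44- and 146 to 113 in CD44+ cells. Their order in OG thus depends on the length used.

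In upper glycolysis, which turns glucose 6-phosphate to triose phosphate, genes went in both directions. Against R26, 4 of the 8 genes were higher and 4 lower in OG CD44-, and 4 were higher and 3 lower in OG CD44+. Pfkfb3 makes fructose 2,6-bisphosphate, the strongest activator of phosphofructokinase, and is a HIF target. It measured 10.4, 8.25, 10.3 and 8.14 CPM in R26 CD44- and 46.1, 25.7, 38.4 and 28.6 in R26 CD44+. OG CD44- gave 26.1, 23.8, 23.3 and 22.8 CPM and OG CD44+ gave 72.0, 58.6, 59.2 and 54.6 CPM. The CD44+ libraries lay above the CD44- libraries without overlap in both R26 and OG, and OG lay above R26 in both sorts. Pfkfb3 rose with CD44 by 1.91 ± 0.17 (adjusted p = 1.33e-07) in R26 and 1.35 ± 0.14 (adjusted p = 8.06e-07) in OG. Against R26 it rose in OG by 1.37 ± 0.17 (adjusted p = 1.32e-06) in CD44- and 0.81 ± 0.14 (adjusted p = 8.34e-05) in CD44+ cells. It was 1 of 4 members, with Slc16a3, Adm and Eno1, that were higher in all 4 comparisons, though the Adm call between OG and R26 in CD44+ cells did not hold under every alternative.

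Phosphofructokinase catalyses the committed step and has 3 genes here. Pfkl, the liver form, ranged over 58.0 to 69.7, 43.1 to 54.8, 38.0 to 41.5 and 46.5 to 61.1 CPM in the 4 groups. It fell in R26 by 0.36 ± 0.09 (adjusted p = 0.00246) and rose in OG by 0.44 ± 0.09 (adjusted p = 0.000272) from CD44- to CD44+, and was lower in OG CD44- than in R26 CD44- by 0.63 ± 0.09 (adjusted p = 1.33e-06). It did not pass between OG CD44+ and R26 CD44+, but did without R26 CD44+ animal 2 (0.25, adjusted p = 0.0162) or 8 or OG CD44+ animal 3, and under 4 other settings (adjusted p of 0.0172 to 0.0381). Pfkp, the platelet form, ranged over 13.5 to 15.8, 17.98 to 20.2, 6.35 to 8.88 and 11.4 to 15.0 CPM. It rose with CD44 by 0.40 ± 0.11 (adjusted p = 0.005) in R26, not passing without R26 CD44- animal 7 (0.30, adjusted p = 0.051), and by 0.84 ± 0.12 (adjusted p = 2.42e-06) in OG, and lay lower in OG than in R26 by 0.99 ± 0.11 in CD44- and 0.56 ± 0.11 in CD44+ cells. Pfkm, the muscle form, ranged over 18.4 to 22.0, 17.2 to 23.8, 14.2 to 18.5 and 13.4 to 17.8 CPM, and was lower in OG by 0.35 ± 0.11 (adjusted p = 0.00577) in CD44- and 0.36 ± 0.11 (adjusted p = 0.00623) in CD44+ cells with overlapping values. Per kilobase, Pfkl and Pfkm lay above Pfkp in every group.

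The 2 aldolase genes on the list moved in opposite directions. Aldoa, the widespread form of the enzyme that cleaves fructose 1,6-bisphosphate, measured 235, 262, 232 and 227 CPM in R26 CD44- and 224, 270.3, 207 and 209 in R26 CD44+. Its OG values were 645, 678, 703 and 694 CPM in CD44- and 577, 659, 706 and 706 in CD44+ cells. The lowest OG library exceeded the highest R26 library, and the sorts overlapped in both. Aldoa rose in OG by 1.51 ± 0.08 (adjusted p = 1.95e-13) in CD44- and 1.54 ± 0.08 (adjusted p = 1.6e-13) in CD44+ cells. Aldoc, the brain form and a HIF target, measured 17.8, 23.1, 17.0 and 17.4 CPM in R26 CD44- and 12.0, 17.7, 9.96 and 10.4 in R26 CD44+. Levels in OG were 4.85, 5.598, 5.38 and 4.16 CPM in CD44- and 4.85, 4.40, 5.40 and 5.50 in CD44+ cells. Every OG library lay below every R26 library. Aldoc fell in OG by 1.91 ± 0.16 (adjusted p = 1.13e-10) in CD44- and 1.30 ± 0.17 (adjusted p = 2.89e-07) in CD44+ cells, and by 0.60 ± 0.15 (adjusted p = 0.00254) from CD44- to CD44+ in R26, where animal 2 was the highest of both sorts and the groups overlapped. Per kilobase, Aldoa stood at 183 ± 6.91 and Aldoc at 1.53 ± 0.196 CPM per kb in OG CD44-.

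Gpi1, which isomerises glucose 6-phosphate to fructose 6-phosphate, and Tpi1, which interconverts the 2 triose phosphates, were also higher in OG. Gpi1 ranged over 60.4 to 73.8, 56.3 to 71.0, 97.4 to 111 and 92.1 to 104 CPM in the 4 groups, and rose by 0.71 ± 0.07 (adjusted p = 3.05e-09) and 0.68 ± 0.07 (adjusted p = 1.14e-08) in CD44- and CD44+ cells. Tpi1 ranged over 83.6 to 93.5, 73.0 to 85.4, 96.6 to 104 and 129 to 137 CPM. Its OG CD44+ libraries stood above all others. It rose within OG by 0.41 ± 0.05 (adjusted p = 9.83e-07) and against R26 in CD44+ cells by 0.75 ± 0.06 (adjusted p = 1.42e-11). Its other calls were small, at 0.19 ± 0.05 (adjusted p = 0.00301) for OG CD44- against R26 CD44- and -0.15 ± 0.06 (adjusted p = 0.0386) for CD44+ against CD44- in R26. The first shrank to 0.06 to 0.11 and did not pass on leaving out any 1 of the 8 R26 libraries (adjusted p of 0.0779 to 0.326), and the second reached -0.25 without R26 CD44+ animal 1 or 7, -0.24 without R26 CD44- animal 7 or 8, and did not pass under 4 other settings (adjusted p up to 0.206).

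**Figure D2:**
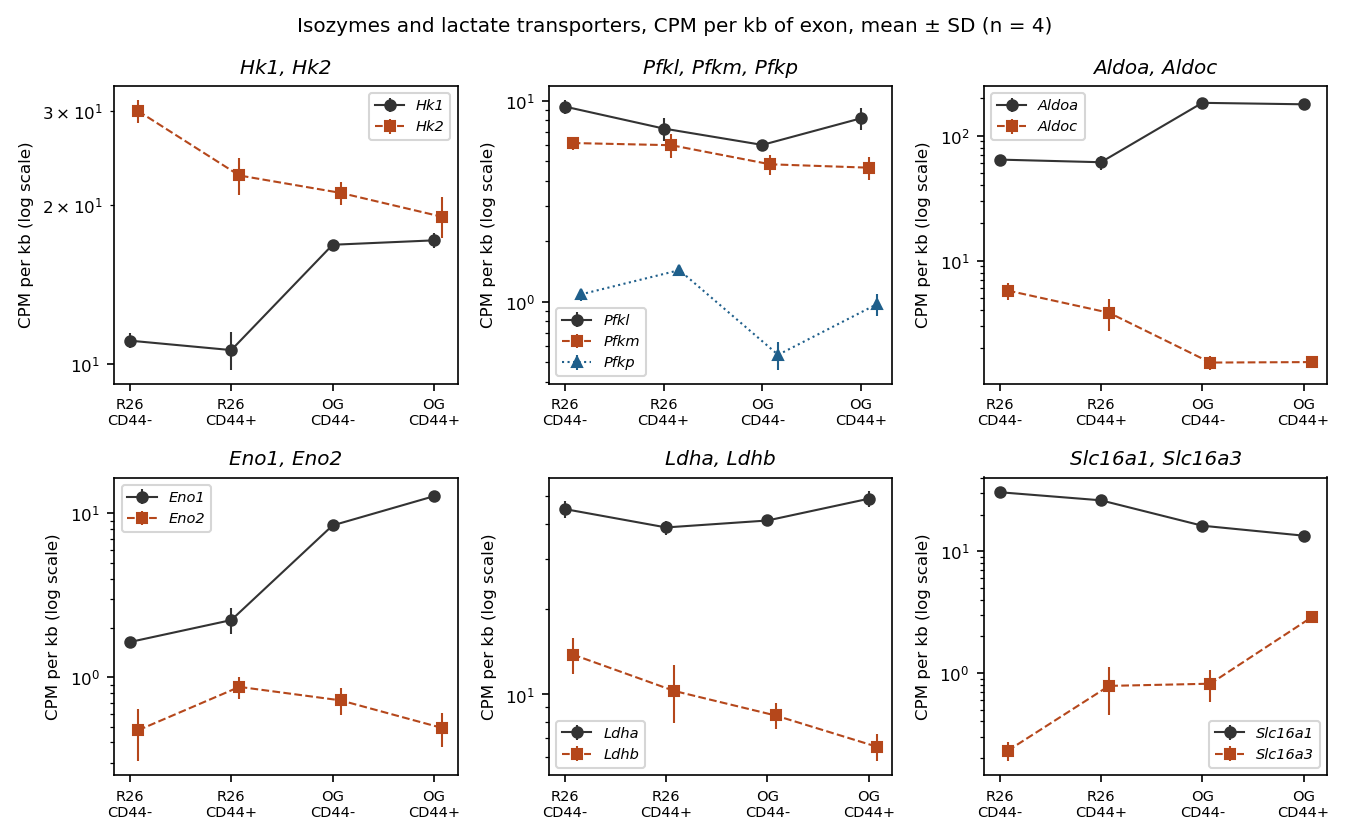
Mean ± SD (n = 4) of CPM per kilobase of exon (log axis) for 6 groups of isozymes or transporters in the 4 groups of libraries. Hk1 approaches Hk2, Aldoa and Aldoc part, and Slc16a3 approaches Slc16a1 from R26 CD44- on the left to OG CD44+ on the right. The order of Hk1 and Hk2 in OG depends on the length used.

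Lower glycolysis, which turns triose phosphate to pyruvate, differed almost uniformly between OG and R26. All 6 genes were higher in OG CD44- than in R26 CD44-, and 5 of the 6 in OG CD44+ than in R26 CD44+, with Eno2 lower there. Gapdh, Pgk1, Pgam1, Eno1 and Pkm have near-identical copies in the genome, described below, and Eno2 has none. The part of reads from such copies in these differences was not tested. Gapdh, the glyceraldehyde 3-phosphate dehydrogenase gene, measured 23.3, 23.7, 24.9 and 23.2 CPM in R26 CD44- and 27.6, 24.5, 22.0 and 20.1 in R26 CD44+. In OG it measured 50.1, 48.3, 54.7 and 51.6 CPM in CD44- and 56.6, 61.2, 66.1 and 62.7 in CD44+. Each OG library lay well above each R26 library, and CD44+ above CD44- in OG alone. Gapdh rose in OG by 1.11 ± 0.08 (adjusted p = 4.03e-12) and 1.39 ± 0.08 (adjusted p = 1.1e-13) in CD44- and CD44+ cells, and with CD44 in OG by 0.27 ± 0.07 (adjusted p = 0.0033).

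Pgk1 encodes phosphoglycerate kinase, which makes the first ATP of the pathway. It measured 5.79, 7.58, 5.72 and 4.91 CPM in R26 CD44- and 7.21, 6.53, 8.53 and 5.56 in R26 CD44+. The OG libraries held 71.4, 85.1, 80.4 and 95.0 CPM in CD44- and 27.2, 27.2, 26.8 and 28.7 in CD44+ cells. OG CD44- stood far above every other group, and OG CD44+ lay between it and both R26 groups, with no overlap. The labels describe no allele, so whether one carries Pgk1 sequence is not given in the sources used here, and reads from such a sequence would be counted with the gene. The rise in OG was 3.80 ± 0.11 (adjusted p = 6.54e-19) in CD44- and 1.97 ± 0.12 (adjusted p = 7.79e-13) in CD44+ cells. Within OG it fell by 1.59 ± 0.09 (adjusted p = 5.19e-12) from CD44- to CD44+. It was the 1 member of lower glycolysis to be called lower there. Pgk1 and G6pdx lie on the X chromosome, and all 16 libraries held Xist at 1145 to 1653 CPM and 0 counts of the 4 Y-linked genes examined.

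Pgam1, the phosphoglycerate mutase gene, measured 16.3, 15.5, 13.2 and 14.0 CPM in R26 CD44- and 17.5, 16.5, 15.3 and 14.9 in R26 CD44+. OG CD44- gave 36.6, 36.0, 36.2 and 39.3 CPM and OG CD44+ gave 41.3, 40.0, 43.5 and 43.4 CPM. Every OG library lay above every R26 library. The rise in OG was 1.33 ± 0.08 (adjusted p = 9.04e-14) in CD44- and 1.39 ± 0.08 (adjusted p = 7.67e-14) in CD44+ cells. With CD44 in OG it rose by 0.18 ± 0.07 (adjusted p = 0.0308), which did not pass on leaving out any of 5 OG libraries, CD44- animals 3, 5 and 6 and CD44+ animals 6 and 7 (adjusted p of 0.0708 to 0.086).

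Enolase makes phosphoenolpyruvate, and its 2 genes here also parted. Eno1, the widespread form, measured 8.93, 8.83, 9.21 and 8.33 CPM in R26 CD44- and 14.6, 12.7, 11.3 and 9.42 in R26 CD44+. Its OG values were 42.8, 45.9, 46.4 and 46.7 CPM in CD44- and 60.8, 70.03, 71.3 and 71.9 in CD44+ cells. The 4 groups stood in the order R26 CD44-, R26 CD44+, OG CD44-, OG CD44+ with no overlap. It rose in OG by 2.36 ± 0.09 (adjusted p = 7.87e-17) and 2.51 ± 0.09 (adjusted p = 2.69e-17) in CD44- and CD44+ cells. With CD44 it rose by 0.59 ± 0.08 (adjusted p = 9.96e-07) in OG and 0.44 ± 0.11 (adjusted p = 0.00235) in R26, the latter becoming 0.26 without R26 CD44+ animal 1. Eno2, the neuronal form and a HIF target, lay low, at 1.37 to 3.16, 3.21 to 4.68, 2.77 to 4.01 and 1.58 to 2.80 CPM in the 4 groups. It rose with CD44 in R26 by 0.86 ± 0.25 (adjusted p = 0.00738) and was lower in OG than in R26 CD44+ cells by 0.83 ± 0.25 (adjusted p = 0.00484). Its rise in OG CD44- of 0.57 ± 0.24 (adjusted p = 0.04) did not pass on leaving out any 1 of 9 libraries (OG CD44- animals 5 and 7, R26 CD44- animals 1, 2 and 7, and every R26 CD44+ library). It was 0.29 without R26 CD44- animal 1 (adjusted p = 0.301) and 0.38 without R26 CD44- animal 2 (adjusted p = 0.213). Nor did it pass with DESeq2's size factors or Wald test, or with only the 8 libraries compared (adjusted p of 0.0586 to 0.071). With the OG CD44- library of animal 7 as TMM reference it did not pass either (adjusted p = 0.0885).

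Pkm encodes the muscle-type pyruvate kinase, which yields pyruvate and the last ATP. It measured 145, 161, 138 and 139 CPM in R26 CD44- and 132, 159, 129 and 128 in R26 CD44+. Levels in OG were 397, 411, 412 and 427 CPM in CD44- and 462, 517, 522 and 525 in CD44+ cells. OG libraries lay above all R26 libraries, and OG CD44+ above OG CD44-. The rise in OG was 1.4996 ± 0.06 (adjusted p = 3.96e-16) in CD44- and 1.89 ± 0.07 (adjusted p = 8.93e-18) in CD44+ cells, and that with CD44 in OG 0.30 ± 0.06 (adjusted p = 0.000307). A count per gene does not separate the M1 and M2 forms of this kinase.

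**Figure D3:**
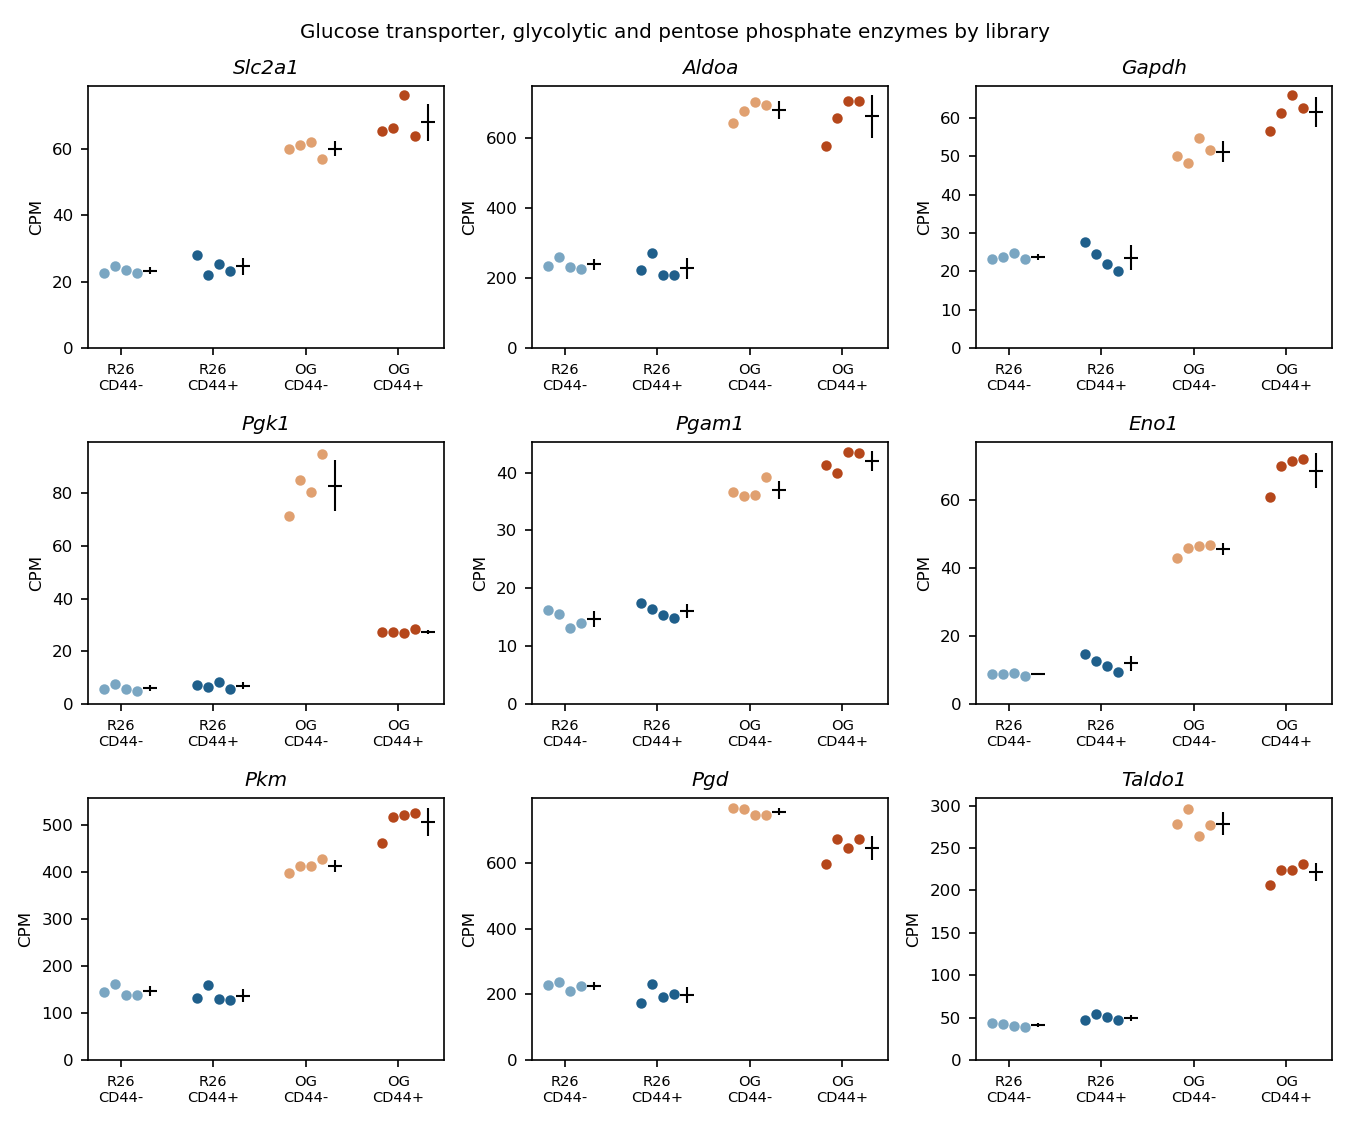
CPM in each library (points, 1 per animal) with the mean ± SD (dash and bar, n = 4) for 9 genes in R26 CD44- (light blue), R26 CD44+ (dark blue), OG CD44- (light orange) and OG CD44+ (dark orange). All 9 genes lie higher in OG, and the OG CD44+ libraries lie below the OG CD44- libraries for Pgk1, Pgd and Taldo1.

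Genes of pyruvate and lactate handling were mostly lower in OG, with Slc16a3 as the exception in CD44- cells, where 1 of the 5 was higher and 4 lower. In CD44+ cells 2 were higher and 3 lower. Slc16a3 encodes MCT4, a lactate exporter and HIF target. It measured 1.05, 1.17, 1.12 and 1.55 CPM in R26 CD44- and 3.37, 6.77, 3.59 and 2.92 in R26 CD44+. In OG it measured 4.38, 6.02, 3.90 and 3.06 CPM in CD44- and 13.3, 15.0, 16.9 and 15.9 in CD44+. R26 CD44- was lowest and OG CD44+ highest, each without overlap, and the other 2 groups overlapped each other. It rose with CD44 by 1.72 ± 0.27 (adjusted p = 1.73e-05) in R26 and 1.83 ± 0.20 (adjusted p = 7.74e-08) in OG. Against R26 it rose in OG by 1.79 ± 0.26 (adjusted p = 1.29e-06) in CD44- and 1.90 ± 0.21 (adjusted p = 2.32e-08) in CD44+ cells. Slc16a1 encodes MCT1, which carries lactate and pyruvate in either direction. It measured 139.7, 132, 135 and 136 CPM in R26 CD44- and 115, 129, 115 and 107 in R26 CD44+. The OG libraries held 71.2, 73.4, 72.6 and 70.5 CPM in CD44- and 57.7, 58.8, 63.6 and 58.1 in CD44+ cells. The groups stood in the reverse order of Eno1, with no overlap. It fell in OG by 0.91 ± 0.05 (adjusted p = 9.47e-14) in CD44- and 0.96 ± 0.05 (adjusted p = 6.94e-14) in CD44+ cells. With CD44 it fell by 0.22 ± 0.05 (adjusted p = 0.00129) in R26, or by 0.35 without R26 CD44+ animal 2, and by 0.27 ± 0.05 (adjusted p = 0.00017) in OG. Per kilobase, Slc16a1 stood at 30.6 ± 0.705 and Slc16a3 at 0.229 ± 0.0424 CPM per kb in R26 CD44-, and at 13.5 ± 0.624 and 2.87 ± 0.289 in OG CD44+.

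Pdk1 encodes a kinase that shuts off pyruvate dehydrogenase, and is a HIF target. It measured 50.1, 58.4, 53.9 and 53.2 CPM in R26 CD44- and 32.02, 49.8, 35.2 and 34.96 in R26 CD44+. OG CD44- gave 25.0, 24.2, 26.3 and 25.7 CPM and OG CD44+ gave 21.1, 19.8, 20.7 and 21.8 CPM. Its groups fell in the same order as those of Slc16a1, and R26 CD44+ animal 2, at the top of its group, came close to the R26 CD44- libraries. Pdk1 fell in OG by 1.09 ± 0.09 (adjusted p = 2.32e-10) in CD44- and 0.86 ± 0.10 (adjusted p = 5.37e-08) in CD44+ cells, and with CD44 by 0.51 ± 0.09 (adjusted p = 9.85e-05) in R26. The fall within OG, 0.28 ± 0.10 (adjusted p = 0.0201), did not pass on leaving out any 1 of the R26 CD44- libraries, R26 CD44+ animal 7 or 8, OG CD44- animal 6 or OG CD44+ animal 5 (adjusted p of 0.0534 to 0.0688). Ldha and Ldhb encode the 2 subunits of lactate dehydrogenase. Ldhb ranged over 19.7 to 26.4, 13.4 to 21.5, 11.7 to 14.5 and 8.96 to 11.7 CPM in the 4 groups, and fell in OG by 0.72 ± 0.13 (adjusted p = 2.84e-05) in CD44- and 0.64 ± 0.14 (adjusted p = 0.000306) in CD44+ cells. Its fall with CD44 was 0.43 ± 0.13 (adjusted p = 0.0109) in R26, or 0.67 without R26 CD44+ animal 2, and 0.36 ± 0.14 (adjusted p = 0.0334) in OG, where the sorts overlapped. In OG it passed only on leaving out R26 CD44+ animal 2, OG CD44- animal 3 or 6 or OG CD44+ animal 5, and not on leaving out any 1 of the other 12 libraries (adjusted p of 0.0527 to 0.1001). Ldha, at 139 to 159.7, 119 to 136, 134 to 140.3 and 151 to 174 CPM, rose with CD44 in OG by 0.26 ± 0.06 (adjusted p = 0.000479) and fell in R26 by 0.22 ± 0.06 (adjusted p = 0.00371), and was higher in OG by 0.34 ± 0.06 (adjusted p = 1.08e-05) in CD44+ cells. In CD44- cells it was lower by 0.13 ± 0.06 (adjusted p = 0.0359), a difference that did not pass without OG CD44- animal 3, 5 or 6 (adjusted p of 0.0788 to 0.0871) and that ran from -0.12 to -0.27 over the libraries left out, being at -0.21 or below without any 1 of the 8 R26 libraries. It also did not pass with no filter on low counts (-0.07, adjusted p = 0.303) or without both libraries of OG animal 3 (adjusted p = 0.078).

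All 4 pentose phosphate genes were higher in OG CD44- than in R26 CD44-, and 3 of the 4 in OG CD44+ than in R26 CD44+. Pgd, the 6-phosphogluconate dehydrogenase gene and source of the second NADPH of the pathway, measured 228, 238, 209 and 226 CPM in R26 CD44- and 173, 231, 191 and 201 in R26 CD44+. Its OG values were 767, 764, 747 and 745 CPM in CD44- and 595, 672, 646 and 673 in CD44+ cells. Each OG library stood far above each R26 library, and within OG the CD44+ libraries lay below the CD44- libraries. Pgd rose in OG by 1.75 ± 0.07 (adjusted p = 3.15e-17) in CD44- and 1.70 ± 0.07 (adjusted p = 7.43e-17) in CD44+ cells. It fell with CD44 by 0.23 ± 0.06 (adjusted p = 0.00456) in OG and by 0.18 ± 0.06 (adjusted p = 0.031) in R26, the latter being 0.33 without R26 CD44+ animal 2, 0.29 without R26 CD44- animal 7, and not passing under 2 other settings (adjusted p up to 0.142). Taldo1, the transaldolase gene of the non-oxidative arm, measured 43.2, 42.4, 40.1 and 38.6 CPM in R26 CD44- and 47.0, 53.9, 50.3 and 47.5 in R26 CD44+. Levels in OG were 278, 296, 264 and 278 CPM in CD44- and 206, 225, 224 and 232 in CD44+ cells. The 4 groups did not overlap, with CD44+ above CD44- in R26 and below it in OG. Taldo1 rose in OG by 2.76 ± 0.06 (adjusted p = 5.34e-22) in CD44- and 2.16 ± 0.06 (adjusted p = 4.86e-20) in CD44+ cells. With CD44 it rose by 0.27 ± 0.06 (adjusted p = 0.000664) in R26, or 0.16 without R26 CD44+ animal 2 and 0.17 without R26 CD44- animal 8, and fell by 0.33 ± 0.05 (adjusted p = 9.3e-06) in OG.

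G6pdx encodes glucose 6-phosphate dehydrogenase, which opens the pathway. It measured 61.1, 59.0, 60.2 and 55.9 CPM in R26 CD44- and 56.8, 65.7, 55.2 and 46.9 in R26 CD44+. In OG it measured 119, 119, 124 and 121 CPM in CD44- and 101, 119.7, 119.8 and 116 in CD44+. Every OG library exceeded 100 CPM and every R26 library lay under 70, and the sorts overlapped. It rose in OG by 1.03 ± 0.07 (adjusted p = 3.92e-12) in CD44- and 1.03 ± 0.07 (adjusted p = 7.58e-12) in CD44+ cells. Tkt, the transketolase gene, ranged over 265 to 308, 220.4 to 307, 351 to 369 and 259 to 279.7 CPM in the 4 groups. It rose in OG CD44- by 0.33 ± 0.08 (adjusted p = 0.000808), which was 0.20 without R26 CD44- animal 8 (adjusted p = 0.0505) and 0.22 without R26 CD44- animal 7. With CD44 it fell by 0.40 ± 0.08 (adjusted p = 0.000287) in OG and 0.22 ± 0.08 (adjusted p = 0.0369) in R26, the latter being 0.42 without R26 CD44+ animal 2 and not passing under 4 other settings (adjusted p up to 0.175). Without that library Tkt was also higher in OG CD44+ than in R26 CD44+ (0.30, adjusted p = 2.09e-06). It was called higher there too with the OG CD44- library of animal 7 as TMM reference (0.21, adjusted p = 0.022) and with no filter (0.20, adjusted p = 0.0449). The same held with limma voom (0.22, adjusted p = 0.00303) and with the animal as a block (0.17, adjusted p = 0.044).

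The HIF alpha subunits moved in opposite directions between OG and R26. Epas1, whose protein HIF-2 alpha is abundant in lung, measured 1207, 1263, 1172 and 1219 CPM in R26 CD44- and 993, 1162, 984 and 971 in R26 CD44+. The OG libraries held 434, 472, 478 and 481 CPM in CD44- and 235, 256, 251 and 263 in CD44+ cells. The groups descended in that order with no overlap. Epas1 fell in OG by 1.38 ± 0.06 (adjusted p = 2.17e-16) in CD44- and 2.03 ± 0.06 (adjusted p = 2.88e-19) in CD44+ cells. With CD44 it fell by 0.89 ± 0.06 (adjusted p = 1.5e-11) in OG and 0.24 ± 0.06 (adjusted p = 0.00132) in R26, or 0.38 there without animal 2's CD44+ library. Hif1a measured 159, 149, 155 and 157 CPM in R26 CD44- and 128, 135, 142 and 132 in R26 CD44+. OG CD44- gave 187, 196, 196 and 189.8 CPM and OG CD44+ gave 179, 190.2, 174 and 176 CPM. OG lay above R26 in both sorts, and CD44+ below CD44- in R26. Hif1a rose in OG by 0.31 ± 0.04 (adjusted p = 1.22e-06) in CD44- and 0.42 ± 0.05 (adjusted p = 1.2e-08) in CD44+ cells, and fell with CD44 in R26 by 0.21 ± 0.05 (adjusted p = 0.000723). The rise in CD44- cells was 0.18 to 0.21 without any 1 of the 8 R26 libraries. Per kilobase, Epas1 exceeded Hif1a 217 ± 6.78 to 26.3 ± 0.778 CPM per kb in R26 CD44-, and 45.0 ± 2.15 to 30.5 ± 1.21 in OG CD44+. These are transcript levels, and HIF alpha is regulated largely as a protein.

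The HIF targets outside glycolysis did not move as a block. Of the 5 tested, 2 were higher and 2 lower in OG CD44- than in R26 CD44-, and 3 were higher and 1 lower in R26 CD44+ than in R26 CD44-. Ndrg1, a stress- and differentiation-linked gene, measured 15.4, 15.0, 16.8 and 17.8 CPM in R26 CD44- and 33.1, 29.1, 33.8 and 32.9 in R26 CD44+. Its OG values were 188, 195, 208 and 205 CPM in CD44- and 186, 189, 187 and 191 in CD44+ cells. OG stood far above R26 in both sorts, and CD44+ above CD44- in R26 only. Ndrg1 rose in OG by 3.61 ± 0.06 (adjusted p = 1.3e-23) in CD44- and 2.54 ± 0.06 (adjusted p = 3.55e-21) in CD44+ cells, and with CD44 in R26 by 0.99 ± 0.07 (adjusted p = 4.29e-11). Adm encodes adrenomedullin, a vasodilator peptide. It measured 1.13, 1.42, 1.45 and 0.84 CPM in R26 CD44- and 4.49, 2.26, 3.77 and 4.99 in R26 CD44+. Levels in OG were 2.08, 2.09, 3.36 and 2.28 CPM in CD44- and 8.55, 5.52, 5.23 and 4.80 in CD44+ cells. CD44+ lay above CD44- in R26 and in OG, and OG above R26 without overlap in CD44- cells alone. It rose with CD44 by 1.70 ± 0.28 (adjusted p = 3.77e-05) in R26 and 1.27 ± 0.24 (adjusted p = 0.000116) in OG. Against R26 it rose in OG by 1.04 ± 0.28 (adjusted p = 0.00225) in CD44- and 0.62 ± 0.24 (adjusted p = 0.026) in CD44+ cells, the latter not passing without OG CD44+ animal 3 (0.41, adjusted p = 0.135) or R26 CD44+ animal 2 (0.46, adjusted p = 0.0807).

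Ankrd37 encodes an ankyrin repeat protein and is a direct HIF target. It measured 2.98, 1.83, 2.96 and 2.45 CPM in R26 CD44- and 3.28, 2.02, 2.24 and 1.88 in R26 CD44+. In OG it measured 0.808, 0.752, 0.493 and 1.43 CPM in CD44- and 2.14, 2.38, 1.91 and 2.48 in CD44+. OG CD44- alone stood below the other 3 groups, which overlapped one another. It fell in OG CD44- against R26 CD44- by 1.58 ± 0.29 (adjusted p = 4.62e-05) and rose with CD44 in OG by 1.38 ± 0.30 (adjusted p = 0.0005). Vegfa, the angiogenic growth factor gene, ranged over 263 to 327, 318 to 432, 278 to 291 and 249.4 to 285 CPM in the 4 groups. It rose with CD44 in R26 by 0.43 ± 0.08 (adjusted p = 0.000181) and was lower in OG than in R26 CD44+ cells by 0.56 ± 0.08 (adjusted p = 2.48e-06). Between OG CD44- and R26 CD44- it passed only without R26 CD44- animal 2 (-0.19, adjusted p = 0.0449) or R26 CD44+ animal 2 (-0.14, adjusted p = 0.0303), or with only the 8 libraries compared (-0.12, adjusted p = 0.0453). Bnip3, a mitophagy receptor gene, ranged over 42.1 to 48.6, 32.7 to 39.0, 31.7 to 37.0 and 30.6 to 37.3 CPM, and R26 CD44- lay above the other groups. It fell with CD44 in R26 by 0.34 ± 0.07 (adjusted p = 0.000883) and in OG CD44- against R26 CD44- by 0.38 ± 0.07 (adjusted p = 5.78e-05). Car12, a membrane carbonic anhydrase gene, had 0 to 9 counts in each library. Egln3, which encodes a prolyl hydroxylase that marks HIF alpha for degradation, had 5 to 20 counts in the R26 CD44+ libraries and 1 to 6 in the others, and neither was tested.

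**Figure D4:**
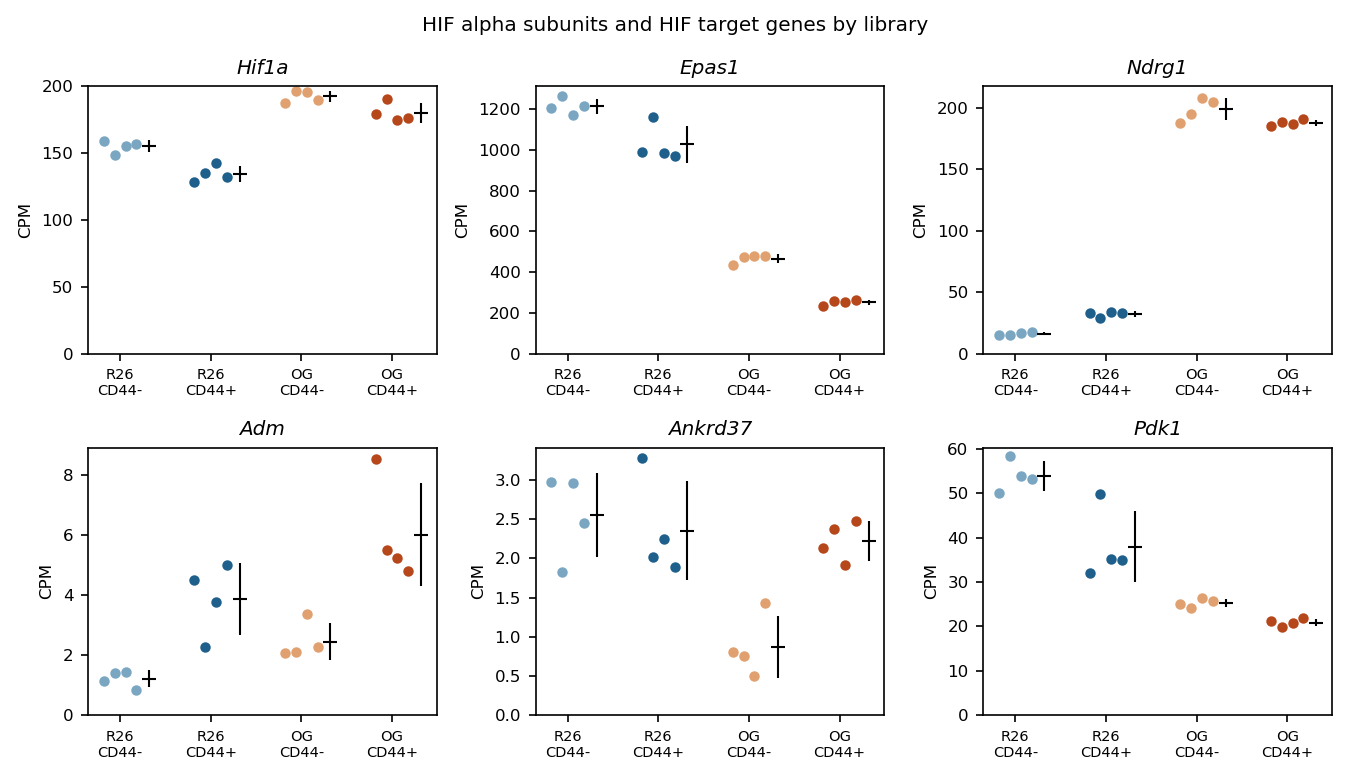
CPM in each library (points, 1 per animal) with the mean ± SD (dash and bar, n = 4) for Hif1a, Epas1 and 4 HIF target genes, Pdk1 of pyruvate handling among them. Epas1 and Pdk1 descend from R26 CD44- to OG CD44+, Ndrg1 is high in both OG groups, and Ankrd37 is lowest in OG CD44-.

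Whether the CD44 difference was the same in OG and in R26 was tested as an interaction in the same fit. The difference, as log2 of CD44+ over CD44-, was more positive in OG for 8 members and more negative for 6, and 19 members did not pass. Of all genes, 24.7% were called, 6.57% with a more positive and 18.1% with a more negative difference in OG. The split depended on the scaling: it became 13 and 6 members with the OG CD44- library of animal 7 as reference, when the split over all genes turned from 1019 and 2806 to 2369 and 1697. With DESeq2's size factors 1460 and 2275 genes passed. Leaving out R26 CD44+ animal 1 or 2 likewise gave 14 members with a more positive difference in OG. Hif1a (0.11, adjusted p = 0.21) passed with DESeq2's size factors or Wald test, with that TMM reference and without any 1 of the 8 R26 libraries (0.17 to 0.27, adjusted p of 0.00324 to 0.0461). Gapdh (0.28, adjusted p = 0.0632) passed under the same settings and 4 more, at 0.29 to 0.49 (adjusted p of 0.00102 to 0.0491), and Aldoc (0.61, adjusted p = 0.0558) passed under both DESeq2 settings, that reference, limma voom, the stricter count filter and without any 1 R26 library other than CD44- animal 2, at 0.62 to 0.93 (adjusted p of 0.000593 to 0.0494). Eno1 and Slc2a1 passed without R26 CD44+ animal 1 (0.38 and 0.28, adjusted p = 0.0273 and 0.0415), Aldoa and Pdk1 without R26 CD44+ animal 2 (0.25 and 0.50, adjusted p = 0.0155 and 0.000243), and Hk1 without either of these and under 3 other settings. Pdk1 also passed with that reference. Pfkfb3 passed as more negative without R26 CD44+ animal 2 (-0.55, adjusted p = 0.0469) or OG CD44+ animal 3 (-0.65, adjusted p = 0.0315) and with limma voom (-0.62, adjusted p = 0.0131). With the animal as a block, Aldoc (0.63, adjusted p = 0.00818) and Gapdh (0.29, adjusted p = 0.0195) were called as more positive in OG, and Pfkfb3 (-0.55, adjusted p = 0.000141) and Tkt (-0.17, adjusted p = 0.0307) as more negative. The 3 members with the smallest adjusted p were Ndrg1 (-1.07 ± 0.08, adjusted p = 1.91e-09), Pgk1 (-1.83 ± 0.18, adjusted p = 6.57e-08) and Epas1 (-0.65 ± 0.08, adjusted p = 1.85e-06), all with a more negative CD44 difference in OG. Taldo1 (-0.60 ± 0.08), Eno2 (-1.40 ± 0.35) and Vegfa (-0.53 ± 0.11) also had a more negative one. Tpi1 (0.56 ± 0.08), Pfkl (0.81 ± 0.13), Ldha (0.47 ± 0.08), Pkm (0.39 ± 0.09, or 0.59 without R26 CD44+ animal 2), Ankrd37 (1.49 ± 0.41) and Bnip3 (0.34 ± 0.11) had a more positive one. Hk2 (0.25 ± 0.09, adjusted p = 0.0381) and Pfkp (0.43 ± 0.16, adjusted p = 0.0496) were also called more positive, but Hk2 did not pass on leaving out 1 of 5 OG libraries, CD44- animals 3 and 6 and CD44+ animals 5, 6 and 7 (adjusted p of 0.0542 to 0.0983), nor Pfkp 1 of 6, CD44- animals 5, 6 and 7 and CD44+ animals 3, 5 and 7 (adjusted p of 0.0521 to 0.122). Hk2 reached 0.39 to 0.41 without R26 CD44- animal 2 or 7 or R26 CD44+ animal 7 or 8. For Slc16a3, Adm, Eno1 and Pfkfb3, the interaction did not pass (adjusted p = 0.863, 0.441, 0.453 and 0.0706).

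**Figure D5:**
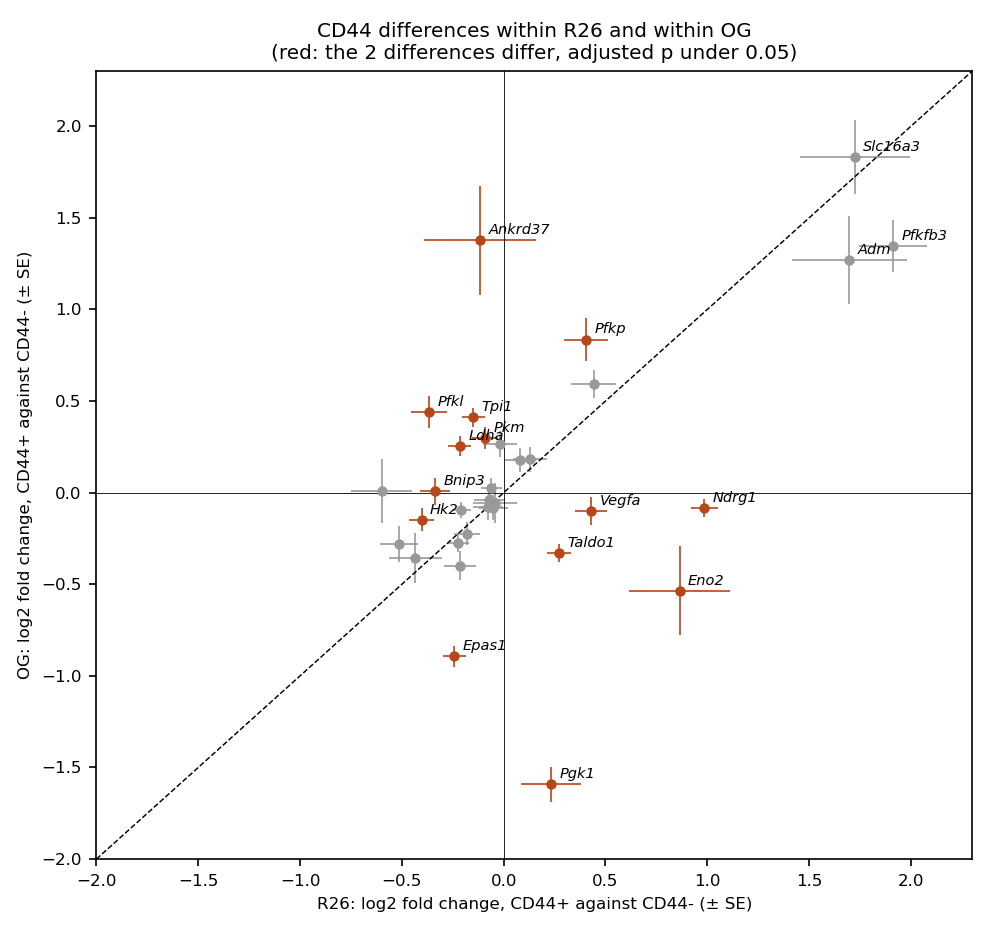
Log2 fold change ± SE of CD44+ against CD44- cells within R26 (x axis) and within OG (y axis) for the 33 tested members, with the dashed line marking equal differences and red points those whose differences differed. Slc16a3, Pfkfb3 and Adm lie at the upper right, and Pgk1, Ndrg1 and Eno2 lie below the line.

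The other genes of these pathways gave a mixed picture. Over all genes, 39.4% were higher and 29.6% lower in OG CD44- than in R26 CD44-, and 34.5% and 34.6% in OG CD44+ than in R26 CD44+. With CD44, 22.3% of all genes were higher and 28.0% lower in OG, and 21.6% and 15.4% in R26. These shares stand beside the counts of each list here and in the next paragraphs. Of 32 tested genes of glycolysis, gluconeogenesis and pyruvate entry outside the list, 15 were higher and 9 lower in OG CD44- than in R26 CD44-, and 16 and 8 in OG CD44+ than in R26 CD44+. With CD44, 3 were higher and 14 lower in OG, and 4 and 11 in R26. Hkdc1, a putative further hexokinase, fell in OG from 76.8 to 33.1 CPM in CD44- cells (log2 -1.21 ± 0.06, adjusted p = 1.02e-14), and Slc16a7, which encodes the lactate and pyruvate carrier MCT2, fell from 57.7 to 15.8 CPM (log2 -1.86 ± 0.07, adjusted p = 3.86e-17). Pfkfb4, a sister enzyme of Pfkfb3, fell where Pfkfb3 rose, with CD44 in R26 from 151 to 117 CPM (log2 -0.37 ± 0.06, adjusted p = 3.85e-05) and in OG from 78.1 to 48.9 CPM (log2 -0.67 ± 0.06, adjusted p = 1.16e-08). Pfkfb2, another of these regulators, fell with CD44 in OG from 299.5 to 189 CPM (log2 -0.66 ± 0.06). Pdp2, a phosphatase that switches pyruvate dehydrogenase back on, fell in OG CD44- from 25.8 to 6.25 CPM (log2 -2.05 ± 0.11). In R26, Slc2a12, the gene of the glucose transporter GLUT12, rose with CD44 from 1.53 to 5.32 CPM (log2 1.78 ± 0.23) and the kinase gene Pdk2 fell from 79.7 to 54.0 CPM (log2 -0.57 ± 0.09). The CD44 difference was more negative in OG for Hkdc1 (-0.68 ± 0.09) and Pfkfb2 (-0.42 ± 0.09), and more positive for Bpgm, which makes 2,3-bisphosphoglycerate (0.37 ± 0.09).

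Of 9 other genes of the pentose and ribose phosphate steps, 2 were higher and 4 lower in OG CD44- than in R26 CD44-, and 2 and 5 in OG CD44+ than in R26 CD44+. Prps2, which makes phosphoribosyl pyrophosphate, fell in OG CD44- from 349 to 103 CPM (log2 -1.76 ± 0.06, adjusted p = 1.56e-17), while its paralogue Prps1 rose from 13.8 to 25.9 CPM (log2 0.91 ± 0.09, adjusted p = 1.51e-09). H6pd, which opens the same oxidative steps in the endoplasmic reticulum, fell there from 563 to 391 CPM (log2 -0.53 ± 0.06). Rpe, the ribulose phosphate epimerase gene, fell with CD44 in OG from 34.5 to 26.7 CPM (log2 -0.37 ± 0.07), as did Prps2 (log2 -0.69 ± 0.07) and Prps1 (log2 -0.38 ± 0.08). Tktl1, a transketolase-like gene, was low, at means of 0.81, 2.96, 0.127 and 0.132 CPM in the 4 groups.

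Among 8 other factors of the HIF pathway, 3 were higher and 4 lower in OG than in R26 in each sort. With CD44 none was higher in either, and 5 were lower in OG and 4 in R26. Cited2, an inhibitor of HIF-1 that competes for its coactivator, fell in OG CD44- from 177 to 59.9 CPM (log2 -1.56 ± 0.07, adjusted p = 3.5e-16), and Egln1, the main prolyl hydroxylase acting on HIF alpha, from 106 to 68.4 CPM (log2 -0.63 ± 0.05, adjusted p = 5.75e-11). Arnt2, a paralogue of the HIF partner ARNT, rose there from 0.423 to 9.24 CPM (log2 4.38 ± 0.28, adjusted p = 1.36e-12) and fell with CD44 in OG to 4.42 CPM (log2 -1.06 ± 0.21). Hif1an, whose product blocks coactivator binding to HIF alpha, fell with CD44 in OG from 93.5 to 74.5 CPM (log2 -0.33 ± 0.06), and Vhl, which encodes the ubiquitin ligase subunit that recognises HIF alpha, fell with CD44 in R26 from 25.1 to 20.0 CPM (log2 -0.33 ± 0.10). Of 31 other HIF targets, 13 were higher and 11 lower in OG CD44- than in R26 CD44-, 12 and 13 in OG CD44+ than in R26 CD44+, 13 and 7 in CD44+ than in CD44- cells of OG, and 12 and 7 in those of R26. Bhlhe40, a transcriptional repressor gene, rose with CD44 in OG from 137 to 279.8 CPM (log2 1.03 ± 0.07, adjusted p = 3.85e-11). P4ha1, a collagen prolyl hydroxylase gene, fell there from 202 to 116 CPM (log2 -0.80 ± 0.05, adjusted p = 1.86e-12). Ddit4, an inhibitor of mTORC1, rose with CD44 in OG from 64.9 to 113 CPM (log2 0.80 ± 0.07). The CD44 difference was more positive in OG than in R26 for Bhlhe40 (0.85 ± 0.10) and Ddit4 (0.72 ± 0.10) and more negative for P4ha1 (-0.49 ± 0.06). Against R26 CD44-, Gbe1, the glycogen branching enzyme gene, rose in OG from 24.2 to 59.7 CPM (log2 1.30 ± 0.09), and the zinc finger gene Zfp395 fell from 75.0 to 31.5 CPM (log2 -1.25 ± 0.08). In R26, the collagen crosslinking genes Loxl2 and Plod2 rose with CD44 from 1.64 to 12.0 and from 5.30 to 18.9 CPM, and the IGF binding protein gene Igfbp3 from 5.06 to 38.9 CPM. Fibroblasts express all 3. The fibroblast and mural marker sum was higher there too, at 739 to 1510.0 CPM in CD44+ against 110.3 to 136 in CD44- libraries, and its part in these values was not tested.

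Many glycolytic genes have near-identical copies, and how reads that match several loci were counted is not given in the sources used here. In GENCODE M21, 13 members had at least 1 other gene or pseudogene with at least 90% identity over at least 50% of their coding length, among them Gapdh with 163, Ldha with 11, and Aldoa and Eno1 with 6 each. In lower glycolysis, Pkm had 5, Pgam1 3 and Pgk1 2 as well. The levels of these members, and comparisons of level with other genes, are therefore uncertain. Whether reads from copies enter their differences between groups was not tested. Eno1b, a copy of Eno1, stood at 25.7 ± 2.10, 30.0 ± 3.01, 127 ± 2.81 and 191 ± 13.9 CPM (mean ± SD, n = 4) in the 4 groups, with the groups in the same order as for Eno1. Aldoart1, a copy of Aldoa, stood at 39.3 ± 2.12, 37.5 ± 3.18, 113 ± 4.93 and 113 ± 9.47 CPM, also higher in OG. G6pd2, a copy of G6pdx, stood at 8.38 ± 1.01, 9.02 ± 2.25, 18.5 ± 0.838 and 17.1 ± 0.954 CPM. Of the 13 members with copies, 10 were higher and 3 lower in OG CD44- than in R26 CD44-, and of the 20 tested members without copies 10 were higher and 9 lower. In CD44+ cells these counts were 11 and 1 with copies and 8 and 9 without. Slc2a1, Pgd, Slc16a3, Ndrg1, Epas1 and Pdk1 have no such copy. Hk1, Pfkm, Pfkp, Pfkfb3, Tpi1, Slc16a3, G6pdx, Tkt and Ankrd37 overlap another gene of the count table, and whether strand was used in counting is not given in the sources used here.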

How the data were processed

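RNA of 16 sorted AT2 libraries was sequenced after rRNA depletion. The deposited table holds whole-number counts per gene and library, not normalized, which the authors made with Bowtie2 and the build mm10, per the submitters' processing notes. The counter, annotation, strand setting and treatment of reads that match several loci are not given in the sources used here. Gene IDs were matched to symbols for 25275 of 27179 genes (93%).

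Counts were filtered with filterByExpr, scaled by TMM (factors 0.8969 to 1.084) and fitted with 1 mean per group over all 16 libraries in edgeR 4.0.16 (robust quasi-likelihood F test, R 4.3.3), after the pipeline had been tested on simulated data. p-values were adjusted over 15516 genes by the Benjamini-Hochberg method and called under 0.05, with SE as the size of the log2 fold change over the square root of F. CPM per kb used the union of a gene's annotated exons in GENCODE M21 as its length. Library totals of 9022471 to 21363816 counts limit the precision of low genes, and counting error is only part of the spread given.

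The 35 members and the pathway and marker lists were chosen with earlier results of these data known. Values in every library are given for members called with a log2 fold change of at least 1 in size, for the called member with the smallest adjusted p of each role group and comparison, and for the 3 members with the smallest adjusted p in the interaction. From each other pathway list the called genes with the smallest adjusted p, at most 3 a comparison, are named.

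The numbers 1, 2, 7 and 8 of R26 and 3, 5, 6 and 7 of OG recur in both sorts of the column names, and each lung gave both sorts per the design text, so they were taken to name the animal. Deviations from the group means correlated within an animal with r = 0.126 to 0.24 in R26 and 0.0199 to 0.0967 in OG. Each library was taken as 1 replicate. The labels do not say which column belongs to which sample. Alternatives were other scalings, DESeq2 1.42.0 and limma 3.58.1 with voom, other filters, fewer libraries, a fold minimum and the animal as a block.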

Additional observations from a re-analysis of the deposited data

Results flagged for a closer look

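In 140 groups of 4 libraries (35 genes in 4 groups), 9 held 1 library whose gap to the others exceeded Dixon's critical value for 4 samples, and chance flags about 1 in 20 such groups. R26 CD44+ animal 2 was high for Epas1 at 1160 CPM (others 971 to 993), Tkt at 307 CPM (others 220.4 to 230.0) and Pkm at 159 CPM (others 128 to 132). The R26 CD44- library of animal 2 was high for Aldoc at 23.1 CPM (others 17.0 to 17.8) and Ldhb at 26.4 CPM (others 19.7 to 20.7). OG CD44+ animal 3 was low for Pkm at 462 CPM (others 517 to 525) and Eno1 at 60.8 CPM (others 70.03 to 71.9). Ldha stood at 140.3 CPM in OG CD44- animal 7 (others 134 to 135), and Adm at 3.36 CPM in OG CD44- animal 6 (others 2.08 to 2.28).

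The CD44 difference in OG minus that in R26 passed the test for 14 members. On the log2 scale it was -1.83 for Pgk1, -1.4 for Eno2, -1.07 for Ndrg1, -0.649 for Epas1, -0.603 for Taldo1 and -0.531 for Vegfa. It was 1.49 for Ankrd37, 0.806 for Pfkl, 0.56 for Tpi1, 0.47 for Ldha, 0.432 for Pfkp, 0.389 for Pkm, 0.345 for Bnip3 and 0.254 for Hk2.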

How the results depend on the processing

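No called member changed direction under any alternative. Leaving aside the fold minimum, calls held under every alternative for 17 of 21 members in OG CD44+ against OG CD44-, 18 of 22 in R26 CD44+ against R26 CD44-, 28 of 32 in OG CD44- against R26 CD44-, 28 of 29 in OG CD44+ against R26 CD44+ and 12 of 14 in the interaction. Those lost were Ldhb, Pdk1, Pgam1 and Slc2a1, then Pfkp, Pgd, Tkt and Tpi1, then Eno2, Ldha, Tkt and Tpi1, then Adm, and then Hk2 and Pfkp, and where no library left out is named in the report the cause was not tested. A test against a 1.5-fold minimum, which asks for more than a difference, left 5 higher and 2 lower members in OG CD44+ against OG CD44-, 4 and 0 in R26 CD44+ against R26 CD44-, 14 and 6 in OG CD44- against R26 CD44-, 14 and 4 in OG CD44+ against R26 CD44+, and 0 and 2 in the interaction. The member median of OG CD44+ against OG CD44- was 0.0163 with the OG CD44- library of animal 7 as TMM reference and 0.02195 with only the 8 libraries compared. That reference also gave -0.17 for R26 CD44+ against R26 CD44-, 0.47 for OG CD44- against R26 CD44-, and 13 higher members and a median of 0.23 for the interaction. The median of OG CD44- against R26 CD44- was 0.50 with DESeq2's size factors and with its Wald test, 0.40 with no filter and 0.45 with only the 8 libraries compared. That of OG CD44+ against R26 CD44+ was 0.47 with no filter, 0.44 with limma voom and 0.43 without both libraries of OG animal 3. The cause of these shifts was not tested. Leaving out 1 library at a time gave, in the same order of comparisons, 11 to 13, 8 to 9, 18 to 20, 19 to 20 and 6 to 14 higher members, 6 to 9, 13 to 18, 11 to 13, 10 to 10 and 6 to 7 lower members, and medians of -0.0663 to 0.01964, -0.194 to -0.0722, 0.29 to 0.60, 0.43 to 0.70 and 0.0478 to 0.237. The animal as a replicate block gave 13 higher and 12 lower members in OG, 9 and 13 in R26, 20 and 12 and 20 and 10 between OG and R26, and 10 and 8 in the interaction. Beyond the members that the report names as added, the block changed no other call. Depth limits low genes such as Adm, Ankrd37, Slc16a3 and Eno2, which lay under 20 CPM in every library, and Car12 and Egln3 could not be tested.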
